A study of Mus musculus with 18 samples.

Results

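Isolated knockout-only H3K4me3 peaks are stretches of the genome that carried a called H3K4me3 peak in Men1 knockout islets and had no called peak of control islets on them or within 5 kb (5000 bp). They were chosen by position from 2 deposited peak lists, so their absence from the control list is their definition and not a result. Of 20752 autosomal knockout peaks (chromosomes 1 to 19), 1406 were isolated, or 6.78% (exact 95% interval 6.44 to 7.13). They covered 1.03 Mb, which was 2.77% of the autosomal length called in the knockout. The other autosomal knockout peaks were 18936 shared peaks, which overlapped a control peak by at least 1 bp, and 410 peaks that lay within 5 kb of a control peak without touching one.

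The knockout library came from pancreatic islets in which Men1 was knocked out islet-specifically, and the control library from pancreatic islets of RIP-Cre mice, whose Cre recombinase is driven by the rat insulin promoter. Both were harvested at 2 months of age from mice whose background mixed C57BL/6, FVB/N and 129s6. The labels do not name the Cre line or the Men1 allele of the knockout, nor the number of animals per library. Islets also hold cells in which an insulin promoter is not active, and vessels and connective tissue. With 1 library per genotype and no read counts, the depth is unknown, differences between the genotypes have no replicate check, and no test was run. The series holds 18 samples, and the 16 others were not analysed here.

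H3K4me3, trimethylation of lysine 4 on histone H3, sits on nucleosomes around the start sites of active and poised genes, with broad stretches at many genes of cell identity and narrow, low ones at some enhancers and weakly used start sites. Menin, the product of Men1, is a subunit of the MLL-type methyltransferase complexes that place this mark, and loss of MEN1 in people predisposes to tumours of the pancreatic islets and other endocrine glands. The gene table at hand describes another mouse build (GRCm38) than the peaks (mm9), so the genes near these peaks, and the labelled tissue by its marker genes, were not examined. Positions are given on mm9, counted from 1.

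Isolated knockout-only peaks were mostly low peaks. The score is the value that the authors' peak caller gave each peak, on a scale the lists do not state, and scores of the 2 lists are not compared in size here. Isolated peaks had a median score of 85.7 (95% interval 83.6 to 88.6, from order statistics), with quartiles at 69.6 and 125, against 2002 (1944 to 2074) among shared ones. Scores below 100 belonged to 859 isolated peaks (61.1%, exact 95% interval 58.5 to 63.7), against 6.81% of shared peaks (6.46 to 7.18). At the lowest score in the list, 60.02, there were 8 isolated peaks, among them 2 on chromosome 1, at 18643114 to 18643668 (555 bp) and 188722045 to 188722625 (581 bp), and 1 on chromosome 10, at 124937361 to 124937898 (538 bp). Only 2 isolated peaks reached the median score of the autosomal knockout list, 1614. These intervals, here and below, treat the peaks of this one library as independent and say nothing of variation from animal to animal or from library to library. Keeping only knockout scores of at least 100 left 547 isolated peaks, or 2.98% of the knockout peaks kept.

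Seen from the whole knockout list, the isolated share fell steadily with score. Among knockout peaks scoring 60 to under 70, 376 were isolated, or 41.9% (38.6 to 45.2), beside 405 shared ones. The share was 29.9% (26.9 to 33.0) from 80 to under 100, 9.26% (8.01 to 10.6) from 150 to under 300, and 0.617% (0.308 to 1.10) from 600 to under 1200. Among all 2422 knockout peaks under 100 it was 35.5%, and among the 14900 peaks at 300 or more it was 0.369%, or 55 peaks. Since the score is a value of the list that chose the members, this gradient describes them and is no test. Within the control list, the partners of shared peaks, weighted to the isolated peaks' scores, had a median score of 181 (173 to 188), and 22.8% (21.2 to 24.4) of these shared peaks had a partner under 100. A partner was the highest-scoring control peak overlapped. The shared peaks were weighted toward low knockout scores, so their partners' scores are a description and not a comparison of the lists.

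**Figure D1:**
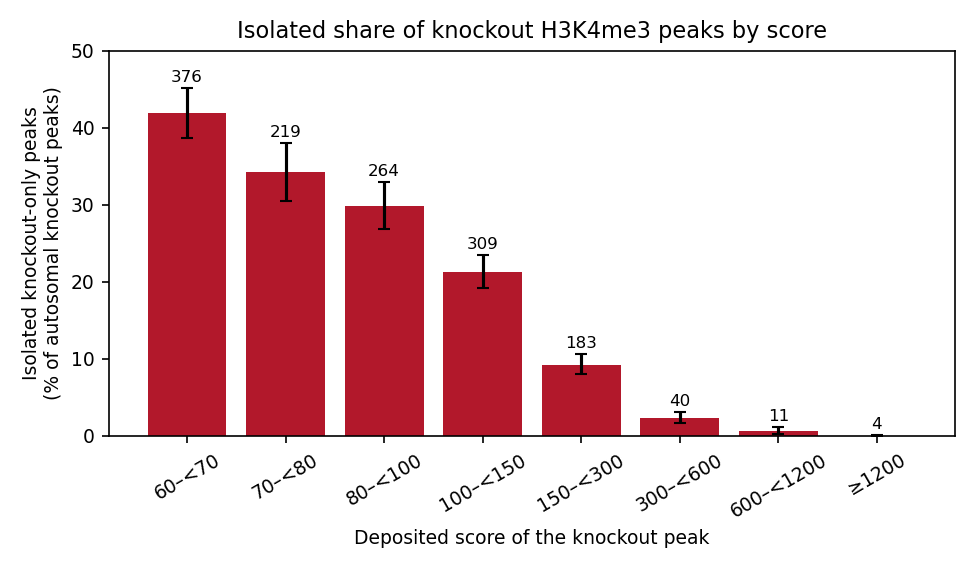
Isolated knockout-only peaks as a percentage of autosomal knockout peaks (vertical axis) in 8 bands of deposited score (horizontal axis), with exact 95% binomial intervals and the number of isolated peaks above each bar. The share is 41.9% from 60 to under 70 and 2.27% from 300 to under 600.

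At equal score, isolated peaks were close in width to shared ones. Their median width was 666 bp (656 to 680), with quartiles at 560 and 823 bp and a range of 335 to 3546 bp, while shared knockout peaks taken as a whole had a median of 1740 bp (1722 to 1757). Weighted to the isolated peaks' numbers per score band, shared peaks had a median width of 694 bp (683 to 704), an interval that lies just above that of the isolated peaks. Against the shared peaks with no further control peak within 5 kb, whose median was 689 bp (677 to 701), the intervals overlapped, as they did among scores of at least 100, with 860 bp (842 to 885) for isolated and 876 bp (863 to 885) for shared peaks. Within bands, the intervals of the medians overlapped in all 8 bands, with the isolated median lower in the 5 bands under 300 and higher in the 3 bands above. For example, isolated peaks scoring 100 to under 150 had a median of 790 bp (767 to 804) and shared ones 796 bp (786 to 812). In the band from 600 to under 1200, 11 isolated peaks had a median of 1740 bp (1230 to 2492) and 1771 shared peaks 1415 bp (1399 to 1435). Width rose with score in both classes (Spearman rho 0.72 over 1406 isolated and 0.87 over 18936 shared peaks, across peaks of 1 library, given as a description). Scores of 3100 or more were held by 37.3% (36.6 to 38.0) of shared peaks and by 1 isolated peak, so the rho values span unlike score ranges.

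Few isolated peaks were broad. A width of 1000 bp or more was reached by 156 isolated peaks (11.1%, 9.50 to 12.9), against 12.2% (11.0 to 13.4) of shared peaks at matched score and 80.6% of all shared peaks. A width of 2000 bp or more was reached by 8 isolated peaks (0.569%, 0.246 to 1.12), against 0.379% (0.184 to 0.690) of shared peaks at matched score, with overlapping intervals. The widest lay on chromosome 6 (126592692 to 126596237), with 3546 bp and a score of 1474, followed by chromosome 7 (142290278 to 142293453), with 3176 bp and the highest score of all, 3184. On chromosome 18 (4980204 to 4983182) a peak of 2979 bp scored 556, the lowest score among the 5 widest.

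**Figure D2:**
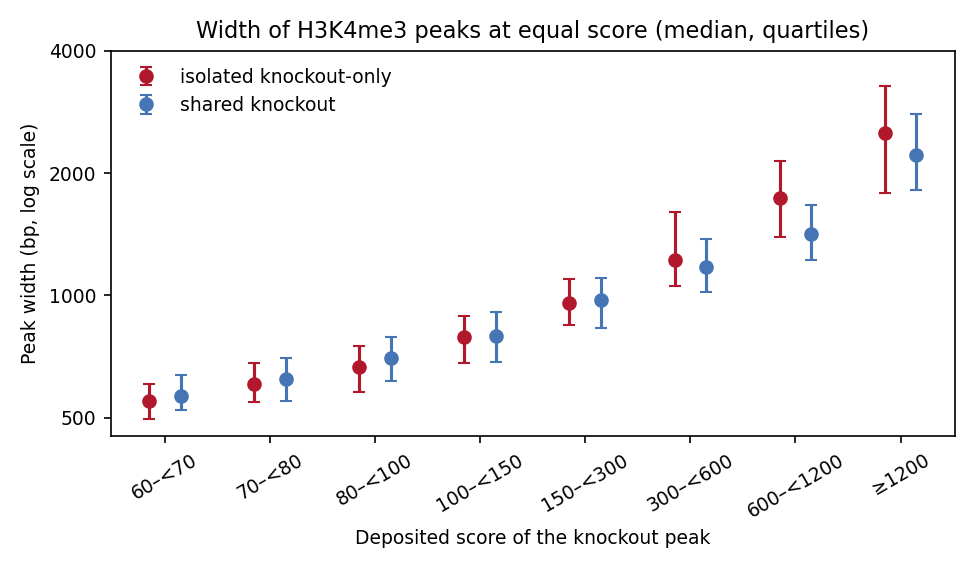
Width in bp on a log axis of isolated knockout-only peaks (red, left) and shared knockout peaks (blue, right) in 8 bands of deposited score, as medians with bars from the lower to the upper quartile. The medians run together in the low bands, with 550 and 565 bp from 60 to under 70, and isolated peaks are the wider from 600 to under 1200, with 1740 and 1415 bp.

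Isolated peaks stood further from other H3K4me3 peaks than shared peaks of the same score. The rule itself keeps most knockout neighbours away, because nearly all knockout peaks overlap a control peak, so distances were also set beside the 15212 shared peaks that had no further control peak within 5 kb. Isolated peaks lay a median of 45.3 kb (40.8 to 49.9) from the nearest control peak. Such alone-standing shared peaks, weighted to the same scores, lay 27.9 kb (25.7 to 29.4) from the nearest control peak that they did not overlap. More than 100 kb separated 408 isolated peaks from any control peak (29.0%, 26.7 to 31.5), against 12.2% (10.8 to 13.7) of these shared peaks. Beyond 500 kb the shares were 3.63% (2.71 to 4.74) and 0.966% (0.590 to 1.49).

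Distances within the knockout list told the same order. The nearest other knockout peak lay a median of 40.3 kb (36.2 to 44.6) from an isolated peak, with quartiles at 14.4 and 106 kb. For shared peaks at matched score the median was 13.0 kb (11.7 to 14.3), and for the alone-standing ones 21.1 kb (19.7 to 22.7). Merging knockout peaks within 1000 bp moved the matched shared median to 20.2 kb, and widening the limit to 20000 bp moved the isolated median to 70.7 kb. Within 20 kb, 33.1% (30.7 to 35.7) of isolated peaks had a knockout neighbour, against 48.3% (46.1 to 50.5) of alone-standing shared peaks. Much of that difference arises within 5 kb, where the rule nearly bars neighbours of isolated peaks but not several knockout peaks over 1 control peak: 5.05% (3.96 to 6.33) of isolated and 14.7% (13.2 to 16.3) of alone-standing shared peaks had a neighbour there. The nearest knockout peak was a shared one for 1139 isolated peaks (81.0%), another isolated one for 246 (17.5%, 15.5 to 19.6), and one of the 410 near-control peaks for 21. For alone-standing shared peaks at matched score, the nearest knockout peak was isolated in 6.76% of cases (5.72 to 7.94). The rule sets part of this contrast, since no isolated peak can lie within 5 kb of a control peak, while 61 isolated peaks lay within 5 kb of another isolated one.

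**Figure D3:**
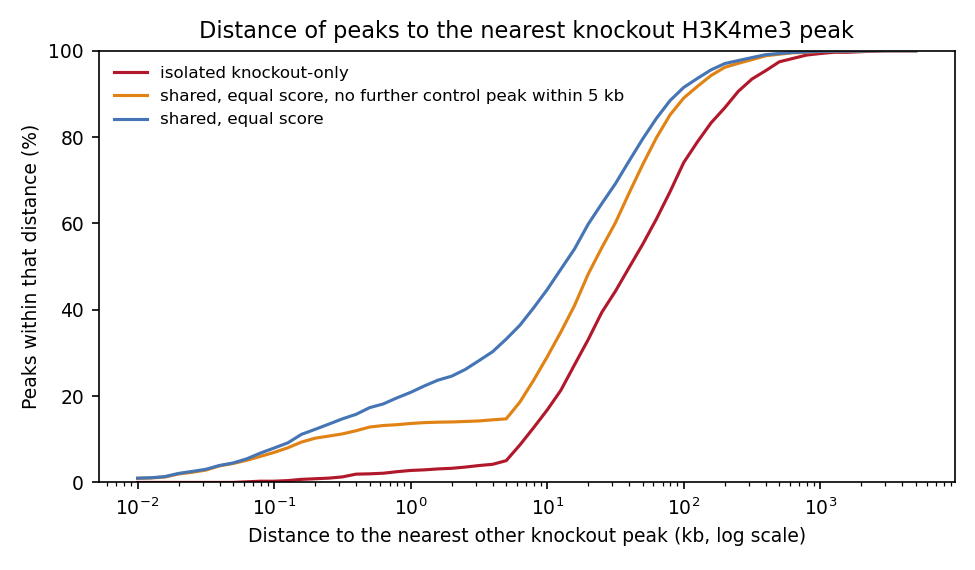
Percentage of peaks (vertical axis) whose nearest other knockout peak lies within a distance in kb on a log axis, for isolated knockout-only peaks (red), shared peaks at matched score with no further control peak within 5 kb (orange), and all shared peaks at matched score (blue). The red curve runs to the right of both others, reaching 33.1% at 20 kb against 48.3% for the orange one, and the red and orange curves bend at 5 kb, the limit used to choose their peaks.

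Some isolated peaks were very remote. There were 12 with no control peak within 1000 kb, and therefore, by definition, with no shared peak within 500 kb. The most remote, on chromosome 1 (117581140 to 117582046), was 907 bp wide with a score of 138 and lay 2624 kb from any control peak and 2624 kb from any other knockout peak. A 692 bp peak on chromosome 5 (61091568 to 61092259, score 77.4) lay 2064 kb from any control peak, and a 489 bp peak on chromosome 17 (61110986 to 61111474) with the lowest score of the list, 60.02, lay 1893 kb away. Others had company. On chromosome 17 a trio lay at least 1545 kb from control peaks, at 93467372 to 93468534 (1163 bp, score 268), 93599757 to 93600863 (1107 bp, score 192) and 93601258 to 93602723 (1466 bp, score 291). On chromosome 2, peaks at 96157724 to 96158958 (score 276) and 96159347 to 96160086 (score 140) were 388 bp apart and 1146 kb from any control peak.

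The limit of 5 kb did not fall in a natural gap. Just inside it, isolated peaks on chromosome 5 (120130147 to 120130952, 806 bp, score 106.4) and chromosome 2 (10008709 to 10009522, 814 bp, score 89.7) lay 5025 and 5060 bp from a control peak. Just outside it, knockout peaks on chromosome 10 (77121107 to 77121762, 656 bp, score 80.7) and chromosome 1 (173187033 to 173187560, 528 bp, score 60.9) lay 4978 and 4968 bp from one. The 410 near-control peaks resembled the isolated ones in size, with a median width of 653 bp (637 to 677) and a median score of 82.2 (78.8 to 88.4).

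Isolated peaks were found most often in sparsely marked stretches. The density of marking was taken as the number of shared knockout peaks within 500 kb either side, and a stretch with at most 7, the 20th percentile over shared peaks (24.8% of which are at or under it), is called sparse here. Sparse stretches held 695 isolated peaks (49.4%, 46.8 to 52.1), against 25.7% (24.1 to 27.4) of shared peaks at matched score and 29.6% (27.6 to 31.6) of the alone-standing ones. The densest class, with 27 to 71 shared peaks, held 99 isolated peaks (7.04%, 5.76 to 8.51), against 16.6% (15.2 to 18.0) and 10.9% (9.60 to 12.3). An isolated peak had a median of 8 shared peaks around it (7 to 8), and an alone-standing shared peak of matched score 11 (10 to 11). The share in sparse stretches was higher for isolated than for all shared peaks in all 8 score bands, and the intervals were apart in 7 of them. The exception was the band from 600 to under 1200, with 11 isolated peaks. Alone-standing shared peaks were not compared by band. The rule sets part of the contrast in density. Density counts shared peaks, which overlap control peaks, and the rule bars control peaks within 5 kb of an isolated peak.

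Measured against the genome rather than against other peaks, the order was the opposite. The autosomal sequence between control peaks and more than 5 kb from any of them came to 2178 Mb. Of it, 65.0% was sparse and 2.89% lay in the densest class. Assembly gaps and unmappable sequence were not taken out of this length. The counts include the 4 isolated peaks beyond the first or last control peak of a chromosome. Isolated peaks numbered 49.1 per 100 Mb of this eligible sequence in sparse stretches and 157 per 100 Mb in the densest class. Per 100 shared peaks they fell from 14.8 in the sparse class to 2.71 in the densest. Their placement thus lay between that of shared peaks and that of the eligible sequence. Over the 5 classes, median scores lay between 79.5 and 90.2 and median widths between 621 and 683 bp. A score of at least 100 was held by 299 of 695 isolated peaks in the sparse class and by 45 of 149 in the class with 17 to 26 shared peaks.

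**Figure D4:**
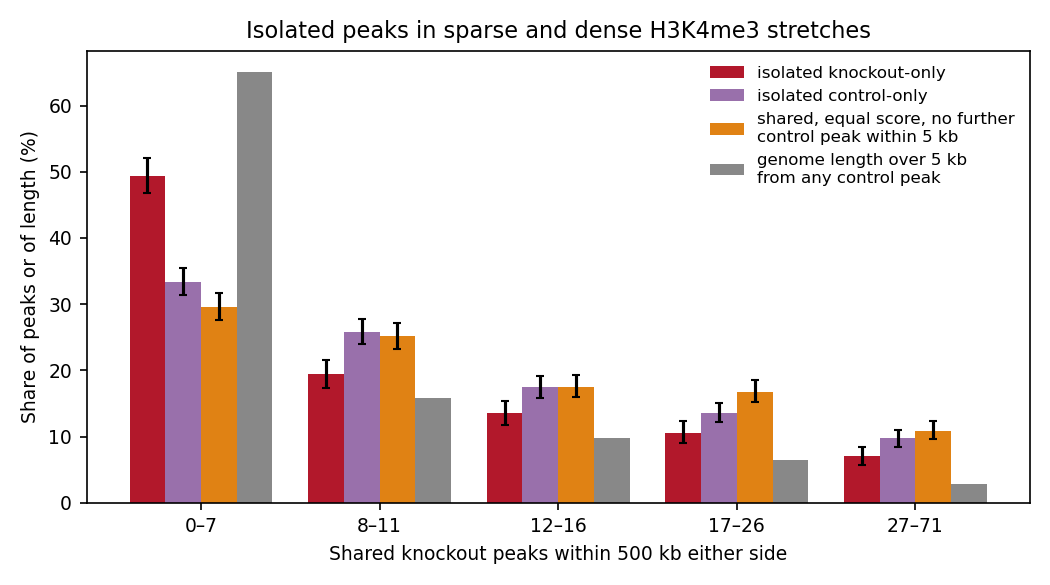
Share in % of isolated knockout-only peaks (red), isolated control-only peaks (purple), alone-standing shared peaks at matched score (orange) and autosomal length between control peaks and over 5 kb from any of them (grey) in 5 classes by the number of shared knockout peaks within 500 kb either side. Bars on peaks are 95% binomial intervals. The sparsest class holds 49.4% of the red peaks, 33.4% of the purple, 29.6% of the orange and 65.0% of the length.

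The gaps between neighbouring control peaks gave the same picture. Of 16873 gaps over 10 kb, 1190 held an isolated peak and 160 held 2 or more. A gap of 10 to 20 kb held one in 0.681% of cases (0.410 to 1.06), a gap of 100 to 200 kb in 9.73% (8.62 to 10.9), and one of the 352 gaps over 1000 kb in 41.2% (36.0 to 46.5). Per 10 Mb of eligible gap sequence, however, isolated peaks numbered 14.4 in gaps of 10 to 20 kb and 3.31 in gaps over 1000 kb. Within their gaps they leaned slightly to the flanks, with 760 of 1402 (54.2%, 51.6 to 56.8) in the outer 50% of the eligible part, that is, in its sections nearest to a control peak. A further 4 lay beyond the first or last control peak of a chromosome.

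The 55 isolated peaks with a score of 300 or more were spread over 18 autosomes. Their median width was 1410 bp (1214 to 1616), and they lay a median of 124 kb (55.8 to 232) from a control peak, against 592 bp (582 to 603) and 40.1 kb (34.6 to 45.2) for the 859 isolated peaks under 100. Of these 55, 37 stood in sparse stretches (67.3%, 53.3 to 79.3), against 46.1% (42.7 to 49.5) of those under 100. Among the 12 highest scores, 8 stood in sparse stretches. Beside those on chromosomes 6 and 7 above, they included chromosome 9 (4795195 to 4796825, 1631 bp, score 1946), 239 kb from a control peak, and chromosome 3 (62406642 to 62408484, 1843 bp, score 1315), 94.9 kb from one. The peak with the highest score, on chromosome 7, had 3 shared peaks within 500 kb, and the nearest knockout neighbour, 160 kb away, was a shared peak with a score of 1819. On chromosome 16 (60604834 to 60607154) a peak of 2321 bp with a score of 791 lay 965 kb from any control peak, with 0 shared peaks within 500 kb. Peaks on chromosome 13 (119502311 to 119504265, 1955 bp, score 882) and chromosome 3 (28980821 to 28982366, 1546 bp, score 682) lay 326 and 275 kb from control peaks.

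Other well-scored isolated peaks stood outside sparse stretches. Over all shared peaks, the median was 13 shared peaks within 500 kb. On chromosome 16 (18451938 to 18453677) a 1740 bp peak with a score of 675 had 26 shared peaks within 500 kb and a control peak 5469 bp away. On chromosome 8 (27409079 to 27411697) a 2619 bp peak with a score of 1011 had 12 shared peaks around it and a control peak 20.7 kb away. On chromosome 14 (52359560 to 52361307) a 1748 bp peak with a score of 971 had 12 shared peaks around it, although the nearest control peak was 142 kb away. On chromosome 17 (31028682 to 31031173) a 2492 bp peak with a score of 1119 lay 6708 bp from a control peak, with 10 shared peaks within 500 kb.

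Isolated peaks were mostly single. Joined where at most 50 kb lay between neighbours, 1220 stood alone and 186 (13.2%, 11.5 to 15.1) fell into 89 clusters, of which 84 held 2 peaks, 4 held 3 and 1 held 6. Joined at 20 kb or 100 kb, 7.97% or 21.3% were clustered, and among knockout scores of at least 100 the clustered share was 8.59%. Of the 89 clusters, 78 had no control peak inside. Clustered peaks had a median score of 95.7 (85.6 to 102) and a median width of 725 bp (671 to 764), against 84.8 (83.0 to 87.8) and 663 bp (647 to 673) for the lone ones. Between neighbouring isolated peaks the median distance was 951 kb (866 to 1064).

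The cluster of 6 lay on chromosome 5 (105232309 to 105268746), in a stretch of 257 kb without a control peak. Its first 3 peaks were separated by 308 and 359 bp and were 1211, 1248 and 1847 bp wide, with scores of 184, 182 and 308. The other 3 were 519, 469 and 632 bp wide, with scores of 61.7, 66.6 and 83.0, and the nearest control peak lay 19.3 kb from the last. The surrounding 104 to 106 Mb of chromosome 5 held 13 isolated peaks among 31 knockout peaks, against 24 control peaks. Of the 4 clusters of 3, the 3 described here held low scores: on chromosome 7 (80895275 to 80936467) their scores were 88.3 to 105.0, at 152003727 to 152047989 they were 60.9 to 84.2, and on chromosome 16 (91175878 to 91232917) 60.8 to 95.5. The cluster on chromosome 16 had 1 control peak and 3 other knockout peaks inside its span, and those on chromosome 7 had 0 of either.

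Some isolated peaks came as close pairs. There were 37 within 1000 bp of another isolated peak, on 12 chromosomes: 17 pairs and the first 3 peaks of the chromosome 5 cluster. Counting any knockout neighbour within 1000 bp, the share was 2.77% (1.98 to 3.77) of isolated peaks, against 13.7% (12.2 to 15.2) of alone-standing and 20.9% (19.4 to 22.4) of all shared peaks at matched score, a distance at which the rule nearly bars other neighbours than isolated ones. The 37 peaks had a median width of 844 bp (731 to 935) and a median score of 125 (87.6 to 184), with scores of 60.8 to 669. The highest-scoring pair lay on chromosome 11 (35059876 to 35062318), with scores of 669 and 337, only 218 bp apart, with the nearest control peak 124 kb away. A pair on chromosome 6 (67482741 to 67485951) had scores of 134 and 423, was 761 bp apart and had no control peak within 263 kb.

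Across chromosomes, the isolated share of knockout peaks ranged from 3.98% on chromosome 11 (3.08 to 5.04) to 8.89% on chromosome 12 (7.01 to 11.1), beside 6.78% over all autosomes. The intervals of chromosomes 5 (8.86%, 7.43 to 10.5) and 12 lay above that value, and those of chromosomes 11 and 19 (4.80%, 3.32 to 6.67) below it. Without the 104 to 106 Mb stretch, chromosome 5 had 8.12% (6.73 to 9.68), an interval that includes the overall value. Scores under 100 belonged to 13.5% of all knockout peaks on chromosome 5, 11.0% on 12, 10.0% on 11 and 11.9% on 19. The isolated shares of the chromosomes were not matched for score, and the 19 intervals were not adjusted for their number. Median widths of isolated peaks lay between 633 and 719 bp and their median scores between 74.0 and 100.3 on all 19 autosomes.

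The windows of 1 Mb with most isolated peaks, singled out after their values were seen, were not alike. On chromosome 18 from 37000001 to 38000000, 9 isolated peaks stood among 81 knockout peaks, against 60 control peaks, of which 5 were isolated control-only peaks. On chromosome 7 from 77000001 to 78000000, 6 isolated peaks stood among 12 knockout peaks, against 5 control peaks. On chromosome 12 from 57000001 to 58000000 there were 5 among 11, against 5 control peaks, and on chromosome 2 from 150000001 to 151000000 there were 6 among 19, against 13 control peaks. In these 3 windows 0 control peaks were isolated control-only peaks. The 5 windows with 5 or more isolated peaks not yet described each held 1 to 3 isolated control-only peaks, among them chromosome 5 from 105000001 to 106000000, with 8 isolated peaks among 15 knockout peaks, against 10 control peaks, 3 of them isolated control-only. Of 2158 windows with an autosomal knockout peak, 952 held an isolated one, 656 held exactly 1 and 29 held 4 or more.

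Isolated control-only peaks, the mirror image in the control list, numbered 2099 of 21215 autosomal control peaks (9.89%). Like the knockout-only peaks, many had low scores within their own list, with 50.6% (48.5 to 52.8) under 100. Of all autosomal control peaks scoring 60 to under 70, 55.0% were isolated, against 5.99% of those from 300 to under 600. Their median width was 805 bp (792 to 816). One of these lay within 100 kb of 248 isolated knockout-only peaks (17.6%, 15.7 to 19.7), against 25.6% (23.7 to 27.6) of alone-standing shared peaks at matched score. Isolated knockout-only peaks also lay further from control peaks of any kind, at a median of 45.3 kb against 27.9 kb for those shared peaks. The part of that distance in this contrast was not tested. Sparse stretches held 49.4% (46.8 to 52.1) of knockout-only and 33.4% (31.4 to 35.5) of control-only peaks. The nearest peak of the other genotype lay at a median of 45.3 kb for knockout-only and 29.6 kb (27.7 to 31.5) for control-only peaks. Clusters held 13.2% of knockout-only and 20.2% (18.5 to 22.0) of control-only peaks. Scores were not matched between knockout-only and control-only peaks, and the lists differ in number of peaks. The part of either in the differences between these 2 kinds of peak was not tested.

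Shared peaks nearest to isolated ones were narrower in the knockout than in the control list, by slightly less than other shared peaks. Over 947 isolated peaks with a one-to-one shared pair within 100 kb, the nearest pair had a median log2 ratio of knockout over control width of -0.09 (-0.11 to -0.07). For alone-standing shared peaks at matched score the neighbouring pair had -0.12 (-0.14 to -0.12), an interval apart from the first, and over all 17716 autosomal pairs the median was -0.11. Isolated peaks close together can have the same nearest pair, so these intervals may be too narrow. The neighbouring pairs were not themselves matched for score or width. These widths come from the same pair of lists that chose the members and are given as a description.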

How the data were processed

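H3K4me3 ChIP-seq peak lists of 1 Men1 knockout and 1 control library were used as deposited. Build mm9, Bowtie and MACS 1.4.2 appear in the submitters' processing notes; which control, filters or pooling went into the calls is not stated there. Each list gives positions and 1 score per peak, a value deposited by the authors without its scale. Lists were matched to samples by genotype, age and mark in their names, which also carry an unexplained "2nd" and "p6". The lists do not state whether the lowest score, 60.02, marks a calling cutoff. No per-sample column was left unused (0).

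Distances are bases between peak borders. Membership was checked with bedtools 2.31.1, which also counted 1406 peaks, and the functions were tested on simulated data (Python 3.11.15, numpy 2.4.6, scipy 1.17.1, pandas 2.3.3). For matched values, shared peaks were weighted to the isolated peaks' numbers in 8 score bands bounded at 60, 70, 80, 100, 150, 300, 600 and 1200, and intervals use the effective number of peaks under these weights. Eligible sequence was counted on a grid of 10 kb. Regions were named by rule: the 12 highest scores, the 5 widest, the 5 farthest from control peaks, the 4 clusters with most members, the 3 lowest scores and 2 peaks either side of the limit; the remote, close-pair, window and further well-scored examples were chosen after their values were seen. Members, measures and rules were chosen with earlier results of these data known. The 682 knockout peaks off the autosomes were left out.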

Additional observations from a re-analysis of the deposited data

How the results depend on the processing

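Recomputed under the alternatives, 32 values stayed inside the 95% interval of the reported value (counts: within 1.5 times) and 39 moved. In each alternative run, isolated peaks had a lower median width (8 of 8, though the intervals overlapped against alone-standing shared peaks and among knockout scores of at least 100), a larger median distance to the nearest knockout peak (8 of 8) and a higher share in sparse stretches (10 of 10) than shared peaks at matched score. The rule that chose the isolated peaks sets part of the contrasts in distance and sparse share. With a limit of 1000 bp, the isolated share of knockout peaks was 7.84%, the median distance to the nearest knockout peak 28.8 kb, the sparse share 45.1% and the clustered share 16.8%. A limit of 20000 bp gave 4.75%, 70.7 kb, 61.5% and 11.2%, and 58.4% of isolated peaks scored under 100. Keeping knockout scores of at least 100 left 547 isolated peaks (2.98%), with median widths of 860 bp for isolated and 876 bp for matched shared peaks, distances of 54.1 and 17.1 kb, a sparse share of 52.5% and a clustered share of 8.59%. Counting only control peaks scoring at least 100 gave an isolated share of 9.80%, widths of 682 and 713 bp, 56.9% under a score of 100, a matched shared distance of 11.3 kb, sparse shares of 42.1% for isolated and 20.9% for matched shared peaks, and 18.2% clustered. Merging knockout peaks within 1000 bp gave a matched shared distance of 20.2 kb, sparse shares of 45.3% and 23.8%, and 10.8% clustered. With X and Y the sparse shares were 44.1% and 19.9%; the 20th percentile there was 6 shared peaks instead of 7, as also after merging and with either score limit. Alone-standing shared peaks gave 21.1 kb and 29.6%. Densities over 100 kb either side gave sparse shares of 56.2% and 28.4%, and over 1000 kb 39.7% and 21.2%. Clustered shares were 7.97% at 20 kb and 21.3% at 100 kb. The causes of the moves were not tested.

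No paired analysis was possible because the knockout and the control have 1 library each, and for the same reason no library was left out. The depths are unknown, so a site without a control peak is only known not to have been called there. Gene annotation on mm9 was not used here.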

Other observations

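On the X chromosome, which was left out above, 30 of 635 knockout peaks (4.72%, exact 95% interval 3.21 to 6.68) had no control peak within 5 kb. Their median width was 677 bp (610 to 787), their median score 109 (73.8 to 147), and they lay a median of 134 kb (91.6 to 218) from a control peak, against 666 bp, 85.7 and 45.3 kb for the autosomal isolated peaks.

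On chromosome 17 (36326140 to 36352994) a cluster of 2 isolated peaks, with scores of 88.8 and 425, had its nearest control peak at 8.73 kb, in a stretch with 27 to 30 shared peaks within 500 kb. Its span also held 1 control peak and 1 other knockout peak. On chromosome 5, close to the cluster of 6, further clusters of 2 lay at 104768537 to 104788165 (scores 102 and 118), at 104947698 to 104950054 (scores 68.1 and 98.7) and at 106432680 to 106445380 (scores of about 61.5 each).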
